A study of Mus musculus with 21 samples.

Results

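The genes described here are the nuclear genes for the subunits of the 5 oxidative phosphorylation complexes. They were chosen by symbol alone: every gene of the deposited tables whose name begins with Nduf followed by a, b, c, s or v and a number, the 4 genes Sdha to Sdhd, names that begin with Uqcr, names that begin with Cox4 to Cox8, and names that begin with Atp5. This gave 88 of the 25239 genes in each table: 35 of complex I, 4 of complex II, 8 of complex III, 20 of complex IV, 17 of complex V and 4 pseudogenes (Ndufb4c, Ndufa11b, Ndufs5-ps and Cox7c-ps1). Ndufa4 and Ndufa4l2 were counted with complex IV, to which their proteins belong. Counts of subunit genes tested include the pseudogenes unless a complex is named.

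Messenger RNA of bulk choroid plexus and hypothalamus was sequenced in mice of WT genotype on the C57BL/6J background. The choroid plexus is the tissue in the brain ventricles whose epithelium makes cerebrospinal fluid. The hypothalamus is a brain region that holds the centres of feeding control. Choroid plexus was taken from 6 samples with overexpression of Ins2, a mouse insulin gene, in the choroid plexus and from 5 control samples. Hypothalamus was taken from 5 Ins2 and 5 control samples, the controls being numbered 1 to 4 and 6. The controls of both tissues are given as untreated, although GFP stands at the front of each control column name in the hypothalamus table. The labels used here do not say how Ins2 was delivered, which cells took it up or whether replicates are separate animals, so each p-value measures the spread between these samples. The libraries held 25.95 to 36.3 M (mega) reads in genes in choroid plexus and 27.4 to 62.1 M in hypothalamus. Tissue identity was checked on marker genes: Ttr, the transthyretin gene of choroid plexus epithelium, took 10.7% to 13.0% of reads in each choroid plexus library and at most 0.000102% in any hypothalamus library. Of 8 hypothalamic peptide genes, 8 had a mean value of at least 10 in hypothalamus and 3 did in choroid plexus. Ins2 itself was higher in the Ins2 choroid plexus samples (log2 fold change 0.92, limma adjusted p = 0.00594). Choroid plexus control 2 stood apart in markers of brain tissue, with an oligodendrocyte score 3.64 and an astrocyte score 1.65 log2 units above the control mean.

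Oxidative phosphorylation is the process by which mitochondria make ATP. Complexes I and II feed electrons from NADH and succinate into the inner mitochondrial membrane, complexes III and IV pass them on to oxygen, complexes I, III and IV pump protons on the way, and complex V, the ATP synthase, uses the proton gradient to make ATP. Several complex IV subunits and the complex V c subunit are encoded by more than one nuclear gene, and the copies are known for tissue-specific use, among them forms named for heart and muscle, testis or lung. Choroid plexus epithelium is rich in mitochondria, which supply the ion pumps that drive fluid secretion.

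The tissues differed in which of the duplicate complex IV genes they used, so the start-site sequences of a pair of such genes for each of the subunits VIII and VIb are shown first. Each runs from 250 bases before to 50 bases after the gene's start in RefSeq's GRCm38.p6 table, 5′ to 3′ on the gene's own strand. Capitals mark matches, on either strand, to the ETS motif CCGGAAG (bound by GABP), the CCAAT box CCAAT, the TATA box TATAAA and the E-box CAGCTG. The NRF1 core GCGCATGC and the YY1 motif AAGATGGC, of factors known to bind promoters of respiratory chain genes, were searched too and had no match in these windows. Cox8b lies at chr7:140900397-140900696 (minus strand), Cox8a at chr19:7217567-7217866 (minus strand), Cox6b2 at chr7:4753045-4753344 (minus strand) and Cox6b1 at chr7:30626065-30626364 (minus strand).
Cox8b: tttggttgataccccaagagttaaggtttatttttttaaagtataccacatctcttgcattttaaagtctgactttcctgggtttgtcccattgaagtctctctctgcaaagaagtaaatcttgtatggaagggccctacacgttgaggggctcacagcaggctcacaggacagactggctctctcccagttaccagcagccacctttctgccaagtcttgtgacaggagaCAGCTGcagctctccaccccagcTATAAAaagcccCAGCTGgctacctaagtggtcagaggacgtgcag
Cox8a: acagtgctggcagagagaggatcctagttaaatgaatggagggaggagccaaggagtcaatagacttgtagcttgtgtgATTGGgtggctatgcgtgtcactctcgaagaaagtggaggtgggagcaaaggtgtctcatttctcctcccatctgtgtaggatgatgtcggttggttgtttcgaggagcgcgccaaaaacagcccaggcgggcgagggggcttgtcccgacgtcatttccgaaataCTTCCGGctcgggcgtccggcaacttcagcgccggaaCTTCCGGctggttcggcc
Cox6b2: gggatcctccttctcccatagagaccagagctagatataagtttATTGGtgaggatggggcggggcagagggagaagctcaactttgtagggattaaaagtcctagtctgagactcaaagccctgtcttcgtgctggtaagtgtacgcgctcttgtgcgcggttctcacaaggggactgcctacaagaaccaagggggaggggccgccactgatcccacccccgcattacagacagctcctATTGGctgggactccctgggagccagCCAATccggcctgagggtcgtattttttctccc
Cox6b1: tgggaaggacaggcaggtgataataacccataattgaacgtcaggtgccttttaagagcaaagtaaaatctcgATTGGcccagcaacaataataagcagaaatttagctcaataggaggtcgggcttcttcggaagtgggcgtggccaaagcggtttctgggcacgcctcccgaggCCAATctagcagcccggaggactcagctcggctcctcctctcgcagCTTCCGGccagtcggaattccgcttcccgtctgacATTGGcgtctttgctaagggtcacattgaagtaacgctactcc

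The Cox8b window held 2 E-boxes and 1 TATA box and no ETS or CCAAT match, whereas the Cox8a window held 2 ETS matches and 1 CCAAT match and no TATA box or E-box. The Cox6b2 window held 3 CCAAT matches, and the Cox6b1 window held 3 CCAAT matches and 1 ETS match. Some matches began after the annotated start. These were the Cox8b TATA box (base 5) and 1 E-box (base 17), and 1 Cox8a ETS match (base 33). The others were 1 CCAAT match each in Cox6b2 (base 18) and Cox6b1 (base 8). RefSeq windows were found for 68 of the 88 genes, as 73 entries. The ETS motif was present in 23.3% of these 73 windows and in 8.86% of all 32851 windows of the same length. The NRF1 core was present in 13.7% against 2.71%, the YY1 motif in 13.7% against 2.75%, the CCAAT box in 42.5% against 37.4%, the TATA box in 12.3% against 13.6% and the E-box in 8.22% against 16.3%. None of the 6 motifs contains another, though single matches can overlap. These are counts of letters, not of bound sites.

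Values are gene reads divided by a size factor for each library, set separately for each tissue, so a level in one tissue was not tested against the other. A share within a library does not depend on the size factor. For each of 9 sets of related genes, the share of one gene was therefore taken as its value per base of transcript over the sum for its set, in each library, and the tissues were set side by side without a test. Tissue and any difference in handling between the tissues cannot be told apart.

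The Cox8b gene spans chr7:140898945-140900446 and the Cox6b2 gene chr7:4751792-4753094, both on the minus strand (GENCODE M21, GRCm38). Cox8b, the heart and muscle form of subunit VIII, supplied 18.9% ± 2.07 of the Cox8 transcripts in control choroid plexus (SD, n = 5) and 17.8% ± 2.35 in Ins2 choroid plexus (SD, n = 6). In hypothalamus its share was at most 0.0850% in every library. Scaled reads of Cox8b were 1733, 1730, 1597, 1563 and 1595 in the choroid plexus controls, with a lowest of 1111, a median of 1453 and a highest of 1650 in the Ins2 samples. In hypothalamus they were 0 in 5 of 10 libraries and at most 3.45 in the rest. Cox8b was thus an abundant transcript in one tissue and near the limit of counting in the other. Nearly all of the rest of the set was Cox8a, the form found in most tissues, and Cox8c, a testis form, was at 0 in every choroid plexus library and in 9 of 10 hypothalamus libraries. Of 10 marker genes of striated muscle, 2 (Actn2 and Ttn) had a mean value of at least 10 in choroid plexus, Myh4 was at 0 in every choroid plexus library, and Acta1 and Ckm reached 5.15 and 5.16. Their summed value was 107 to 188 in choroid plexus and 840 to 971 in hypothalamus. In bulk tissue, a change in the number of cells of a type and a change in RNA per cell cannot be told apart.

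Cox6b2, the testis form of subunit VIb, supplied 33.1% ± 0.912 of the Cox6b transcripts in control choroid plexus (SD, n = 5) and 33.5% ± 1.77 with Ins2 (SD, n = 6). In hypothalamus the shares were 2.76% ± 0.155 and 2.53% ± 0.279 (SD, n = 5 each). Scaled reads of Cox6b2 were 1564, 1528, 1586, 1777 and 1854 in choroid plexus controls and 82.8, 87.8, 105, 123 and 96.0 in hypothalamus controls. Its partner Cox6b1 was at 3899 to 4522 in choroid plexus controls and at 3593 to 5656 in hypothalamus controls. Every choroid plexus library had a Cox6b2 share of at least 31.6%, and every hypothalamus library one of at most 2.97%. Without division by length the mean shares over all libraries were 28.5% and 2.13%.

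The Cox7a set held genes that leaned each way. Cox7a1, the heart and muscle form of subunit VIIa, supplied 9.06% to 12.4% of the set in choroid plexus libraries and 0.826% to 1.84% in hypothalamus libraries. Cox7a2l supplied 23.6% to 28.2% in choroid plexus and 49.0% to 52.7% in hypothalamus. Cox7a2, the form found in most tissues, made up the remainder, 61.8% to 65.6% and 46.2% to 49.4%. None of the 3 ranges overlapped between the tissues. Shares of these genes depend on transcript length, and without division the mean shares of Cox7a1 and Cox7a2 were 5.47% and 56.5% in choroid plexus and 0.605% and 35.9% in hypothalamus.

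Other pairs leaned toward hypothalamus. Cox6a2, the heart and muscle form of subunit VIa, was listed at 0 in 10 of 11 choroid plexus libraries, while its share of the Cox6a set in hypothalamus was 0.784% to 1.94%. Scaled reads of Cox6a2 in hypothalamus controls were 66.4, 52.5, 74.4, 152 and 54.5, the highest being control 4. Ndufa4l2, known as a hypoxia-induced relative of the complex IV subunit Ndufa4, had a share of at most 0.250% in choroid plexus and of 1.06% to 2.08% in hypothalamus. Shares of Cox4i2, a lung form of subunit IV, were low in both tissues, with ranges of 0.0413% to 0.240% and 0.166% to 0.665% that overlapped. Cox7b2, a testis form of subunit VIIb, had at most 1.81% of its set in any library. In the c subunit of ATP synthase, Atp5g3 supplied most of the transcripts per base in both tissues, 65.4% to 69.3% in choroid plexus and 65.6% to 71.0% in hypothalamus. Atp5g1 had 14.5% to 16.6% in choroid plexus and 6.11% to 7.58% in hypothalamus, and Atp5g2 had 15.8% to 18.9% and 22.9% to 27.3%. These levels rest on the length assumed for Atp5g1, whose transcripts differ in length: divided by the shortest coding transcript, the mean share of Atp5g1 was 41.6% in choroid plexus and 22.2% in hypothalamus, and that of Atp5g3 was 41.4% and 47.96%. Of the 100-base windows of Atp5g2, 86.4% also occur in another gene's transcript, so its counts are uncertain. The split between Ndufb4 and its pseudogene Ndufb4c is uncertain too, since 100% of the windows of Ndufb4c occur in Ndufb4.

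**Figure D1:**
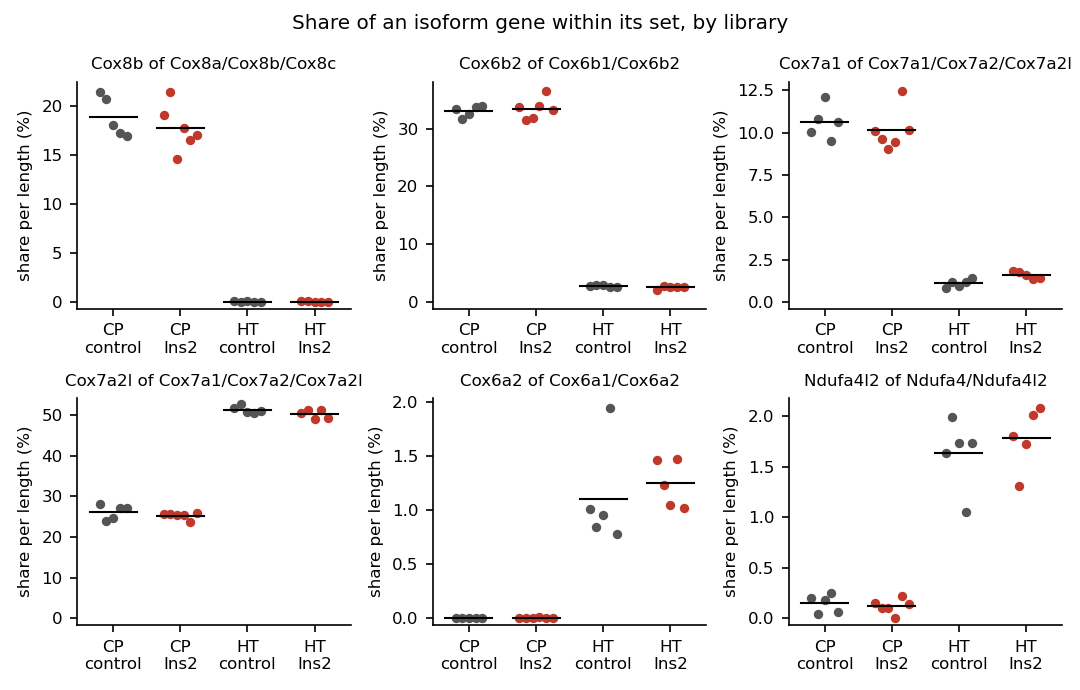
Share of each gene within its set of related genes, in percent per base of transcript, one point per library, with the group mean as a bar (CP, choroid plexus with 5 control and 6 Ins2 libraries; HT, hypothalamus with 5 and 5). Cox8b, Cox6b2 and Cox7a1 are higher in every choroid plexus library and Cox7a2l, Cox6a2 and Ndufa4l2 in every hypothalamus library. Control and Ins2 points of a tissue overlap for each gene, although mean Cox7a1 shares in hypothalamus were 1.11% in controls and 1.60% with Ins2.

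Ins2 and control samples of one tissue were compared in all 42 gene and tissue combinations of these sets by an exact two-sided permutation test over samples. 2 of the 42 had an unadjusted p under 0.05, and the smallest p adjusted over the 42 shares was 0.667. The Cox7a1 share in hypothalamus was 0.826%, 1.15%, 0.939%, 1.19% and 1.42% in controls and 1.84%, 1.75%, 1.60%, 1.38% and 1.43% with Ins2 (exact permutation p = 0.0159). The highest control, replicate 6, lay above the lowest Ins2 sample. The Cox7a2 share in choroid plexus was 63.1% in controls and 64.6% with Ins2 (exact permutation p = 0.0476). In sets of 2 genes both shares carry the same p, so the 42 tests are not independent. The smallest possible exact p was 0.00216 in choroid plexus and 0.00794 in hypothalamus. A share alone at that p could not pass 0.05 after adjustment over the 42. This family of tests therefore says little on whether a share differed.

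Levels per kilobase of transcript allow one gene to be set beside another within a tissue, and the genes with the highest levels belonged to complexes IV and V. In control choroid plexus Cox4i1, the main form of the largest nuclear subunit of complex IV, stood first at 24430 ± 409 scaled reads per kb (SD, n = 5), followed by Atp5b, the catalytic beta subunit of ATP synthase, at 21662 ± 1029. In control hypothalamus Atp5b was first at 19018 ± 736 and Cox4i1 second at 18431 ± 1626, a gap smaller than the spread of Cox4i1. Median levels per kb in choroid plexus controls were 3025 for complex I, 2626 for II, 5246 for III, 4566 for IV and 8364 for V. In hypothalamus controls they were 2917, 2962, 3453, 4778 and 5131. The lowest tested subunit genes were Ndufa4l2 in choroid plexus (18.4 ± 11.3 per kb) and Cox7b2 in hypothalamus (22.6 ± 19.6 per kb), both in complex IV. The range within complex IV was accordingly the widest of the 5 in both tissues.

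**Figure D2:**
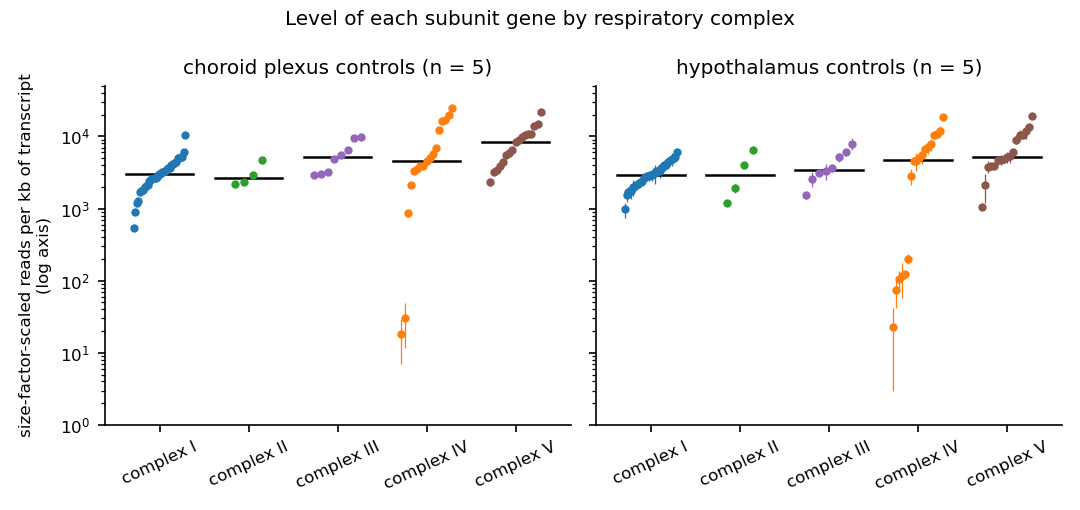
Level of each tested subunit gene in control samples, in size-factor-scaled reads per kilobase of transcript on a log axis, by complex, as mean ± SD of 5 libraries with the median of the complex as a bar. Complex V has the highest median in both tissues, and the lowest points are complex IV genes such as Ndufa4l2 at 18.4 in choroid plexus and Cox7b2 at 22.6 in hypothalamus.

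The 4 genes of complex II, succinate dehydrogenase, differed in their order. In control choroid plexus Sdha, the flavoprotein subunit, was at 4658 ± 174 scaled reads per kb, Sdhd and Sdhc, the membrane anchors, at 2926 ± 160 and 2326 ± 125, and Sdhb, the iron-sulfur subunit, at 2202 ± 124 (SD, n = 5). Sdhc and Sdhb lay within 1 SD of each other. In control hypothalamus Sdha was at 6487 ± 474 per kb and Sdhb at 4023 ± 263, above Sdhd at 1901 ± 269 and Sdhc at 1190.2 ± 83.6. Sdhc has coding transcripts of unlike length, so its place in the order depends on the length used.

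5 genes did not enter the test in each tissue because their mean value was under 10. In choroid plexus these were Cox6a2, Cox7b2, Cox8c, Ndufa11b and Ndufs5, and in hypothalamus Cox7c-ps1, Cox8b, Cox8c, Ndufa11b and Ndufs5. Ndufs5, a complex I subunit gene, was listed at 0 in all libraries but 1, hypothalamus Ins2 replicate 3 with 1.97. Of its 100-base windows, 19.8% also occur in the gene BC002163. Whether the 0 reflects the counting or the tissue was not tested. The pseudogene Ndufs5-ps was at 32.2 to 81.8 in choroid plexus. Of the 88 genes, 26 share exon bases with a gene on the opposite strand, the largest shares being those of Ndufb6 (39.0%), Ndufa13 (30.0%) and Uqcrc2 (19.8%), and 19 share more than 10% of their 100-base windows with another gene. Values of these genes are uncertain, since shared windows occur in another gene too and the strand setting of the counting is not given in the sources used here.

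Ins2 overexpression was then compared with control in choroid plexus, where 83 of the 88 genes were tested. No subunit gene was higher or lower at an adjusted p under 0.05 in limma's moderated test on log2(value + 1) with Benjamini-Hochberg adjustment over all 14533 genes tested, of which 0.0138% passed. At an unadjusted p under 0.05 there were 3 subunit genes, Sdhb and Ndufs7 higher and Cox8b lower, against 6.21% of all genes. No subunit gene had Ins2 and control samples that did not overlap, against 0.626% of all genes. Log2 fold changes were above 0 for 41 and below 0 for 42 of the 83, with a median of -0.0018, and the median over all genes tested was -0.0045. By complex, 17 of 34 genes were above 0 in complex I, 2 of 4 in II, 5 of 8 in III, 5 of 17 in IV and 11 of 17 in V. Neither edgeR nor DESeq2 on the recovered reads called any of the 83.

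Sdhb, at chr4:140961203-140979193 on the plus strand, carried one of the smallest p-values. Its scaled reads in choroid plexus controls were 2748, 2439, 2458, 2386 and 2545, and with Ins2 the lowest was 2513, the median 2805 and the highest 2969. Controls 1 and 5 lay inside the Ins2 range and the other controls below it, so the groups overlapped. The log2 fold change was 0.13 ± 0.06 (SE, limma adjusted p = 0.790; exact permutation p = 0.0433). Ndufs7, an iron-sulfur subunit of the part of complex I that passes electrons to ubiquinone, was at 2734, 2574, 2468, 2400 and 2332 in controls and at 2439 (lowest), 2738 (median) and 3050 (highest) with Ins2. The log2 fold change of Ndufs7 was 0.13 ± 0.06 (limma adjusted p = 0.793). Ndufs8, a second iron-sulfur subunit of complex I, was at 2440, 2169, 2318, 2385 and 2504 in controls and at 2396 (lowest), 2519 (median) and 2689 (highest) with Ins2, a log2 fold change of 0.10 ± 0.05 (limma adjusted p = 0.823). Controls and Ins2 samples overlapped in both genes. Ndufv2, which carries an iron-sulfur cluster near the NADH site, and Ndufa7, an accessory subunit, followed with log2 fold changes of 0.09 ± 0.05 and 0.09 ± 0.07, the latter being 0.15 without Ins2 replicate 2 and 0.054 without Ins2 replicate 5.

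Cox8b had the smallest p-value among subunit genes in choroid plexus. Its log2 fold change was -0.21 ± 0.08 (limma adjusted p = 0.729; exact permutation p = 0.0519), from a mean of 1644 ± 81.4 in controls (SD, n = 5) to 1432.5 ± 196 with Ins2 (SD, n = 6). 4 of the 6 Ins2 samples lay below the lowest control, 1563, and the others, replicates 1 and 5 at 1650 and 1598, lay within the control range. Without Ins2 replicate 3 the log2 fold change was -0.14. Among the other 4 genes with the smallest p-values on the lower side, Ndufa3, an accessory subunit of complex I, was at 2213, 2206, 2320, 2233 and 2352 in controls and had a lowest of 1299, a median of 2046 and a highest of 2487 with Ins2. The log2 fold changes were -0.19 ± 0.11 for Ndufa3, -0.18 ± 0.12 for Ndufs6, -0.19 ± 0.14 for Ndufa1 and -0.13 ± 0.10 for Ndufv3, none past the test. In all 4 genes the lowest value was that of Ins2 replicate 2. Without that sample the log2 fold changes were -0.07 for Ndufa3, -0.07 for Ndufs6, -0.04 for Ndufa1 and -0.02 for Ndufv3.

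A set of 8 subunits found in every form of their complexes had small log2 fold changes. They were Ndufs1 and Ndufv1 of complex I, Uqcrc1 and Uqcrfs1 (the Rieske iron-sulfur protein) of III, Cox5a and Cox5b of IV, and Atp5a1 and Atp5b of V. Their log2 fold changes in choroid plexus ran from -0.15 (Cox5b) to 0.04 (Uqcrc1). The Cox5b value rested on Ins2 replicate 2 and was -0.0049 without it. Atp5b, for example, was at 42587, 39449, 40359, 40748 and 44381 in controls, and at 38760.0 (lowest), 41988 (median) and 44574 (highest) with Ins2. The remaining complex II genes had log2 fold changes of -0.05 ± 0.05 (Sdha), 0.02 ± 0.05 (Sdhc) and -0.02 ± 0.07 (Sdhd).

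In hypothalamus 83 of the 88 genes were tested, and again none passed at an adjusted p under 0.05, as in 0% of all 16363 genes in limma's test (edgeR called 0 of all genes and DESeq2 41). 9 had an unadjusted p under 0.05, 2 higher (Uqcrq and Cox7a1) and 7 lower (Sdhb, Atp5md, Ndufa11, Ndufa6, Ndufb5, Ndufs1 and Ndufs8), against 9.92% of all genes. No subunit gene had groups that did not overlap, against 1.5% of all genes. Log2 fold changes were above 0 for 26 and below 0 for 57, with a median of -0.036, and the median over all genes was 0.0011. Genes above 0 numbered 10 of 34 in complex I, 2 of 4 in II, 3 of 8 in III, 8 of 18 in IV and 3 of 17 in V. Over all genes tested, 50.3% were above 0. The lean of the subunit genes depended on single controls, and it reversed only without hypothalamus control 4. Without control 4, 55 genes were above 0 and 28 below, and the median was 0.018. In that fit 11 genes were higher and 3 lower at an unadjusted p under 0.05. The lean was larger without control 1 (17 above and 66 below) and without control 2 (14 above and 69 below). Neither edgeR nor DESeq2 called a subunit gene.

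Sdhb in hypothalamus was at 4819, 4172, 4678, 4894 and 4405 in controls and at 4514, 4296, 3919, 4193 and 3968 with Ins2. Controls 2 and 6 lay inside the Ins2 range and the other controls above it. The log2 fold change was -0.14 ± 0.05 (limma adjusted p = 0.408; exact permutation p = 0.0556). Atp5md, a small membrane subunit of ATP synthase, was at 4011, 3645, 3863, 5940 and 3774 in controls and at 3874, 3681, 3423, 3384 and 3443 with Ins2. Control 4 stood far above the rest and controls 2, 3 and 6 lay inside the Ins2 range, and the log2 fold change of -0.23 ± 0.09 (limma adjusted p = 0.428) was -0.10 without it. Ndufa11, an accessory complex I subunit, was at 3127, 3124, 3555, 3428 and 3449 in controls and at 2954, 3116, 3215, 2908 and 3149 with Ins2, and controls 1 and 2 lay inside the Ins2 range. Its log2 fold change was -0.12 ± 0.05 (limma adjusted p = 0.454). Ndufa6 and Ndufb5, also accessory subunits of complex I, had log2 fold changes of -0.15 ± 0.07 and -0.14 ± 0.06 (-0.088 and -0.077 without control 4), and Ndufs1, the largest core subunit of complex I, one of -0.09 ± 0.04.

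On the higher side, Uqcrq, a small subunit of complex III, was at 1917, 2214, 2565, 2432 and 2469 in hypothalamus controls and at 2491, 2522, 2635, 2687 and 2528 with Ins2. Control 3 lay inside the Ins2 range, and the log2 fold change was 0.16 ± 0.07 (limma adjusted p = 0.448; exact permutation p = 0.0476). It was 0.09 without control 1. Cox7a1 was at 29.8, 38.8, 35.3, 54.6 and 51.9 in controls and at 64.3, 66.1, 60.04, 54.0 and 54.6 with Ins2. Its log2 fold change was 0.53 ± 0.25 (limma adjusted p = 0.488; exact permutation p = 0.0159), with control 4 inside the Ins2 range. Ndufc2, Ndufs6 and Ndufa2 of complex I followed, at 0.14 ± 0.10, 0.15 ± 0.11 and 0.13 ± 0.09. Without control 1 they were 0.048, 0.077 and 0.072, and without control 2 they were 0.072, 0.091 and 0.044. Without control 4 Ndufc2 and Ndufs6 were at 0.21 and 0.24. The same 8 subunits as in choroid plexus ran from -0.09 (Ndufs1) to 0.06 (Cox5b), and Sdha, Sdhc and Sdhd were at 0.06 ± 0.05, -0.05 ± 0.05 and 0.10 ± 0.07. Sdhd was at 0.056 without control 1, 0.035 without control 2 and 0.16 without control 4.

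**Figure D3:**
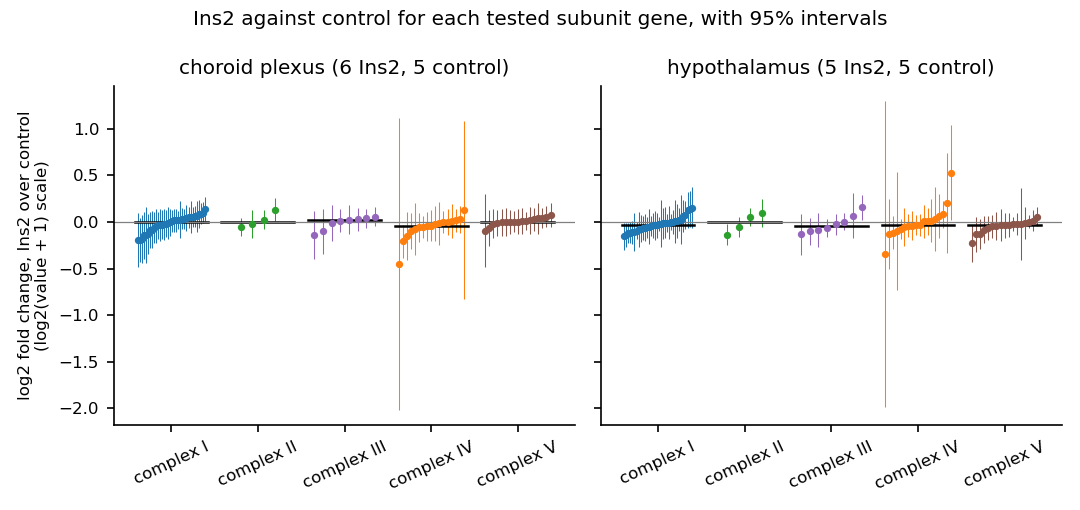
Log2 fold change of Ins2 over control for each tested subunit gene with its 95% interval, by complex, in choroid plexus and hypothalamus, with the median of the complex as a bar. Points crowd around 0 in both tissues, no gene passed the adjusted test, and the widest intervals belong to scarce complex IV genes, Ndufa4l2 and Cox4i2 in choroid plexus and Cox7b2 in hypothalamus.

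**Figure D4:**
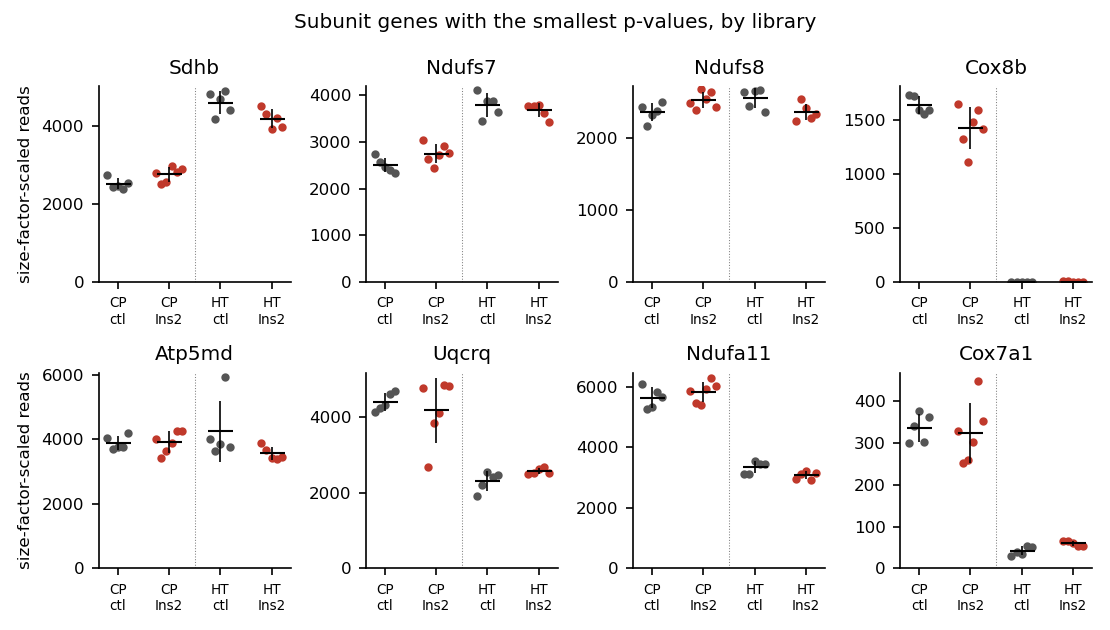
Size-factor-scaled reads of 8 subunit genes, one point per library, with mean ± SD, for choroid plexus (CP) and hypothalamus (HT) controls (ctl) and Ins2 samples. Control and Ins2 points overlap in each gene and tissue, Cox8b is near 0 and untested in hypothalamus, and heights should be read within a tissue only, since each tissue was scaled on its own.

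The difference between the tissues was tested as the choroid plexus minus the hypothalamus log2 fold change, for 81 of the 88 genes, 2 of them pseudogenes. None passed at an adjusted p under 0.05, against 0.107% of all 13997 genes, and 9 had an unadjusted p under 0.05, against 10.6%. Sdhb had the smallest p-value, with a difference of 0.27 (95% interval 0.11 to 0.43, adjusted p = 0.182 from the limma fits), being above 0 in choroid plexus and below 0 in hypothalamus. Ndufs8 followed with 0.21 (95% interval 0.06 to 0.37, adjusted p = 0.289) and Ndufv2 with 0.20 (adjusted p = 0.378). Cox7a1 had a difference of -0.60 (adjusted p = 0.446). The test treats the tissues as independent, which need not hold if both came from the same animals.

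A score for each library, the mean over the tested subunit genes of log2(value + 1) less the mean of the controls of that tissue, showed where the spread lay. In choroid plexus the controls scored 0.0055, -0.076, 0.0069, 0.030 and 0.034, and the Ins2 samples 0.064, -0.32, -0.054, -0.019, 0.16 and 0.063. Ins2 replicate 2 was the lowest and Ins2 replicate 5 the highest, so both extremes were Ins2 samples. In hypothalamus the controls scored -0.11, -0.17, 0.013, 0.27 and -0.0058, and the Ins2 samples -0.015, -0.0033, -0.039, -0.057 and -0.013. There both extremes were controls, and the 5 Ins2 samples lay between them. Subunit genes took 1.34% ± 0.0488 of reads in control and 1.36% ± 0.121 in Ins2 choroid plexus, and 1.01% ± 0.0936 and 0.977% ± 0.00529 in hypothalamus (SD).

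Scores of the 5 complexes were correlated over the libraries of a tissue. Over the 11 choroid plexus libraries the score of complex I had a Pearson r of 0.986 with that of all members, complex II 0.822, III 0.972, IV 0.893 and V 0.953, values that share members and libraries and are given as a description. Ins2 replicate 2 scored -0.30 in complex I, -0.15 in II, -0.33 in III, -0.42 in IV and -0.29 in V. Hypothalamus control 4 scored 0.25, 0.15, 0.25, 0.34 and 0.29. Single genes followed the mean of the other subunit genes with a median r of 0.833 over 11 choroid plexus libraries and 0.811 over 10 hypothalamus libraries. Ndufb9, Atp5j2 and Cox4i1 followed it most closely in choroid plexus (r = 0.976, 0.969 and 0.951). Uqcrc2, Ndufs1, Ndufa9 and Ndufa10 had the lowest r apart from a pseudogene (-0.30, 0.077, 0.095 and 0.11). Each r here and below includes choroid plexus Ins2 replicate 2 or hypothalamus control 4, the extreme library of its tissue. No r was computed without that library, so how far these values rest on it was not tested.

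Genes outside oxidative phosphorylation moved in the same libraries. The score of cytosolic ribosomal protein genes (80 tested in choroid plexus and 81 in hypothalamus) was -0.28 in choroid plexus Ins2 replicate 2, 0.28 in hypothalamus control 4, and had an r of 0.952 with the subunit score in choroid plexus and 0.965 in hypothalamus. Libraries also differed in how values changed with transcript length: the slope of the log2 difference from controls on log2 length was 0.036 in choroid plexus Ins2 replicate 2 and -0.068 in Ins2 replicate 5, and in hypothalamus -0.047 in control 4 and 0.037 in control 2. Its r with the subunit score was -0.815 in choroid plexus and -0.872 in hypothalamus. With that length trend taken out of each library, an alternative chosen after seeing the data, the score of Ins2 replicate 2 was -0.13 and that of hypothalamus control 4 was 0.11, each still the extreme of its tissue. The 16 genes of the TCA cycle, which feeds the chain, scored 0.017 and 0.044 in these 2 libraries. The first lay inside the control range, and the second was the highest TCA score in hypothalamus. Over all libraries the TCA score had an r of 0.108 with the subunit score in choroid plexus and 0.580 in hypothalamus. For glycolysis genes r was 0.578 and 0.696, for complex I assembly factors 0.732 and 0.768, and for regulators of mitochondrial genes -0.161 and -0.518. What part RNA quality or library preparation has in these scores was not tested.

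The complex IV score departed from the others in choroid plexus Ins2 replicate 4, at -0.27 against 0.0053 in complex I and 0.075 in complex V. In that library Ndufa4l2 was at 0 and Cox4i2 at 14.5, and without these 2 genes the complex IV score was -0.017. Scores of 7 endothelial and 10 pericyte and smooth muscle markers were -0.96 and -0.80 there. Over the 11 choroid plexus libraries the log2 level of Ndufa4l2 had an r of 0.717 and that of Cox4i2 an r of 0.634 with the pericyte and smooth muscle score, and over the 10 hypothalamus libraries the r values were 0.476 and -0.0090. The part of vessel cells in these values was not tested.

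**Figure D5:**
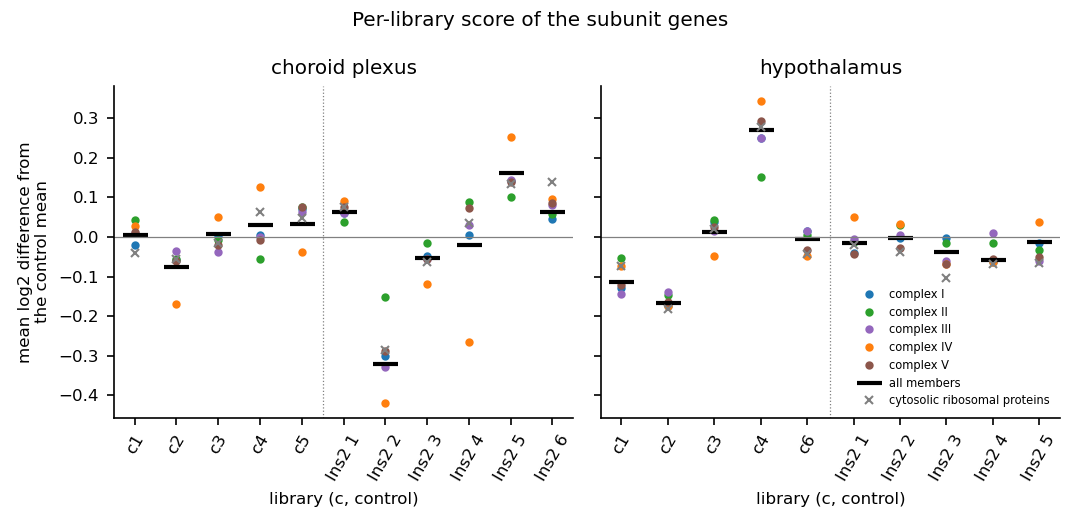
Per-library score of the subunit genes, the mean log2 difference from the control mean of the tissue, for each complex (coloured points), all members (black bars) and cytosolic ribosomal proteins (crosses), with controls left of the dotted line. Choroid plexus Ins2 replicate 2 lies lowest at -0.32 and hypothalamus control 4 highest at 0.27, and the ribosomal protein score lies near the subunit score in both.

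Other genes of the pathway were counted from lists of assembly factors, carriers and regulators. No gene of these lists passed the adjusted test in limma in either tissue. Of 18 tested complex I assembly factors, 13 in choroid plexus and 7 in hypothalamus were above 0. Ndufaf1, which helps build the membrane arm of complex I, had a log2 fold change of 0.14 in choroid plexus (limma adjusted p = 0.842) and of -0.21 in hypothalamus (adjusted p = 0.388), where every Ins2 sample lay below every control. Of 23 complex IV assembly factors, 9 in choroid plexus and 8 in hypothalamus were above 0. Cox19, a copper-handling factor, had every choroid plexus Ins2 sample above every control (log2 fold change 0.23, adjusted p = 0.666). Ndufaf1 and Cox19 were each the only gene of their list without overlap in that tissue. Groups did not overlap in 0.626% of all genes tested in choroid plexus and 1.5% in hypothalamus. In complex IV assembly in hypothalamus Cmc1, another copper-site factor, had the smallest p-value (log2 fold change -0.23, adjusted p = 0.501). In complex II assembly, Sdhaf2, which inserts the flavin into Sdha, was at 0.14 in choroid plexus and -0.15 in hypothalamus (adjusted p = 0.805 and 0.524). The member with the smallest p-value was Uqcc3 (0.18) and Uqcc2 (0.17) in complex III assembly, and Atpaf1 (0.19) and Tmem70 (-0.10) in ATP synthase assembly, in choroid plexus and hypothalamus in turn. Among 16 regulators of mitochondrial genes, 6 in choroid plexus and 5 in hypothalamus were above 0. Esrra, a nuclear receptor that drives oxidative genes, was at 0.25 in hypothalamus (adjusted p = 0.317), and Gabpa, an ETS factor, at -0.11 in choroid plexus (adjusted p = 0.839). The mitochondrially encoded subunits were not analysed here.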

How the data were processed

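Poly(A) RNA, extracted with the PicoPure kit and made into dUTP directional libraries per the labels' protocols, was sequenced in 11 choroid plexus and 10 hypothalamus samples. The deposited signal is gene counts divided by a DESeq2 size factor, and the submitters' processing notes name HISAT2, featureCounts and the GRCm38/mm10 build. Tool versions and the strand setting were not given in the sources used here. There is 1 table for each tissue. Dividing by the step of each library gave whole reads for 100% of values within 0.02, from 25.95 to 62.1 M reads a library, so a listed 0 allows up to 3 reads (counting error only).

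Ins2 and control were compared within each tissue with limma 3.58.1 (R 4.3.3; lmFit, eBayes with trend) on log2(value + 1), for genes with a mean of at least 10, with Benjamini-Hochberg adjustment over all genes tested and a threshold of 0.05. A fold change on this scale understates the change of low genes. For single genes the group labels were also permuted over all splits, two-sided (exact test; 462 splits in choroid plexus, smallest p 0.00216; 252 in hypothalamus, smallest p 0.00794). For the tissue difference, one log2 fold change was subtracted from the other, with Welch-Satterthwaite degrees of freedom. edgeR 4.0.16 and DESeq2 1.42.0 on the recovered reads were alternatives, beside other pseudocounts and filters, equal totals, array weights, a replicate block, removal of a length trend and leaving out samples. Transcript length was the median of the RefSeq-linked coding transcripts in GENCODE M21. Named genes were, in each tissue, the 5 with the smallest p on each side, the isoform sets, the Sdh genes, 8 core or constant subunits, the highest and lowest per length, and the smallest p of each other list; genes named for their r or for overlap were chosen after their values were seen. On simulated counts with 100 genes changed at each size, the test recovered 72% of 1.5-fold and 80% of 2-fold changes in choroid plexus and 70% and 89% in hypothalamus. It also called 8 unchanged genes in choroid plexus and 9 in hypothalamus. Genes were simulated independently, with no spread shared across a library, so these rates need not hold for the subunit genes. Python 3.11.15, pandas 2.3.3 and scipy 1.17.1 were used. The values of 1 gene in this naming rule are not reported here. The members and lists were chosen with earlier results of these data known.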

Additional observations from a re-analysis of the deposited data

Results flagged for a closer look

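In 19 of 178 groups of single genes or scores that were examined (10.7%), 1 library lay far from the rest of its group; chance gives this in about 1 in 20 groups.

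In choroid plexus, control 5 was the highest of the controls for Atp5g3 (11133 scaled reads, next 10067), Cox4i1 (18982, next 18381) and Cox7b (4006.5, next 3559). The score over all subunit genes was lowest in control 2, at -0.076, with the other controls at 0.0055 or above. Among the Ins2 samples, replicate 2 was the lowest for Atp5g3 (7774, next 10029), Cox5b (1869, next 2976), Ndufs6 (611, next 937) and Ndufv1 (3005, next 3465). Ndufs1, a core subunit of complex I, was highest in Ins2 replicate 4, at 5924 against 5325 or less in the others.

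In hypothalamus, control 4 was the highest control for Atp5b (38908, next 36217), Atp5md (5940, next 4011), Cox5a (4877, next 4179), Cox6a2 (152, next 74.4), Cox7a2l (6466, next 5347) and Cox7b (4053, next 2758), and its complex IV score was 0.34 against -0.047 or less in the other controls. Among the Ins2 samples, Atp5b was highest in replicate 4 (37226, next 35782), Atp5g3 lowest in replicate 5 (7029, next 7217) and Cox5b lowest in replicate 1 (3832, next 4095). Thus 7 of the 10 hypothalamus values came from 1 library, control 4.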

How the results depend on the processing

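No subunit gene was called at an adjusted p under 0.05 in either tissue under any alternative run, while the calls over all genes ranged from 1 to 34 in choroid plexus (34 with DESeq2) and from 0 to 57 in hypothalamus (41 with DESeq2, 18 without control 6). The median log2 fold change of the subunit genes ran from -0.029 (without Ins2 replicate 5) to 0.045 (without Ins2 replicate 2) in choroid plexus and from -0.074 (without control 2) to 0.018 (without control 4) in hypothalamus when 1 library was left out. In hypothalamus it was -0.0026 with the length trend removed and -0.0045 with array weights. In choroid plexus it was also above 0 with DESeq2 (0.0050), edgeR (0.012), array weights (0.038), equal totals (0.020) and, chosen after seeing the data, without controls 2 and 5 (0.0012), where no subunit gene had an unadjusted p under 0.05. Unadjusted counts of subunit genes ran from 1 to 6 in choroid plexus and from 2 to 14 in hypothalamus with 1 library left out. They were 1 in choroid plexus without Ins2 replicate 1, 4 or 6 or without control 3 or 4, and 6 without Ins2 replicate 2. In hypothalamus they were 2 without Ins2 replicate 3 or 4, 3 without Ins2 replicate 5, 5 without Ins2 replicate 1 or control 1, and 14 without control 4. Samples with the same replicate number showed little correlation over the tested genes (-0.15 to 0.14 in choroid plexus and -0.070 to 0.0089 in hypothalamus). Only number 3 in choroid plexus matched its own number best. Such correlations cannot show whether the samples were paired. In hypothalamus the replicate numbers and the codes in the sample titles differ. Ins2 replicates 4 and 5 are coded F5 and F6, and control replicate 6 is coded G5. These checks used the replicate numbers. A replicate block was run only on samples whose number occurs in both groups. It gave 2 calls over all genes in choroid plexus and 57 in hypothalamus, none of them a subunit gene, with subunit medians of -0.021 and -0.030.

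Of 21 subunit genes followed through the alternatives in each tissue, 15 kept their sign and 6 changed it. In choroid plexus the log2 fold change with the length trend removed was -0.0040 for Atp5a1, -0.017 for Atp5b and -0.013 for Ndufv1. Without controls 2 and 5 it was -0.0044 for Atp5a1, -0.0019 for Ndufv1 and -0.0042 for Uqcrc1, with array weights 0.0039 for Cox5a and 0.027 for Sdhd, and with the replicate block -0.000505 for Atp5b. Leaving out 1 library gave -0.0047 to 0.029 for Atp5a1, -0.016 to 0.029 for Atp5b, -0.076 to 0.017 for Cox5a, -0.0046 to 0.048 for Ndufv1 and -0.054 to 0.042 for Sdhd. In hypothalamus Atp5a1 was at -0.0093 with equal totals. Uqcrfs1 was at 0.0074 with the length trend removed. Ndufv1 was at 0.0066 with array weights, 0.00057 with edgeR, 0.024 with the length trend removed and 0.012 with the replicate block. Uqcrc1 was at -0.00062 with array weights, -0.0090 with equal totals and -0.0051 with the block. Leaving out 1 library gave -0.0067 to 0.013 for Atp5a1, -0.035 to 0.0025 for Atp5b, -0.046 to 0.195 for Cox5b, -0.019 to 0.015 for Ndufv1, -0.013 to 0.028 for Uqcrc1 and -0.057 to 0.018 for Uqcrfs1. The cause was not tested. The tissue difference was not run with edgeR or DESeq2. The median standard error of a subunit gene's log2 fold change was 0.071 in both tissues.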

Other observations

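Other metabolic genes were counted in the same fits, and none passed limma's adjusted test. Of 16 TCA cycle genes, 12 in choroid plexus and 8 in hypothalamus had a log2 fold change above 0. The smallest p-values belonged to Dlat, a subunit of pyruvate dehydrogenase, in choroid plexus (log2 fold change 0.086, adjusted p = 0.839) and to Fh1, fumarate hydratase, in hypothalamus (-0.11, adjusted p = 0.477). Of 17 glycolysis genes, 7 and 11 were above 0. Aldoc, an aldolase of the brain, was at -0.15 in choroid plexus (adjusted p = 0.823), and Hk1, the main hexokinase of brain, at 0.088 in hypothalamus (adjusted p = 0.514). Among 9 electron carriers and subunits outside the naming rule, 5 and 4 were above 0, led by Coq10a at -0.16 in choroid plexus and Etfdh at -0.13 in hypothalamus (adjusted p = 0.823 and 0.557). Of the cytosolic ribosomal protein genes, 42 of 80 were above 0 in choroid plexus and 18 of 81 in hypothalamus, where 50.3% of all genes tested were above 0. The ribosomal protein score of hypothalamus control 4 was 0.28, with the other controls between -0.18 and 0.020 and the Ins2 samples between -0.10 and -0.021, and the count without control 4 was not computed.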
